A study of Mus musculus with 15 samples.

Results

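The genes described here are 10 receptor, surface and secreted genes of the monocyte branch of blood formation: Csf1r, Ccr2, Cx3cr1, Itgam, Emr1, Ly6c1, Ly6c2, Ly86, Fn1 and F13a1. They were chosen by name and function from 23337 gene symbols in the deposited tables. All 10 passed the filter on low values, which left 15181 genes to test. The study compared mice labelled as knockout for Trappc1, which encodes a small subunit of the TRAPP complexes of membrane traffic, with wild-type mice (WT) in myeloid progenitors sorted from bone marrow, by RNA sequencing. Common myeloid progenitors (CMP) were sorted as Lin-Sca1-CD117+CD34+ cells with low CD16/32, and granulocyte-monocyte progenitors (GMP) as the same cells with high CD16/32. There were 4 WT CMP, 4 knockout (KO) CMP, 4 WT GMP and 3 KO GMP libraries, the last numbered 1, 3 and 4, and the labels give the treatment of all of them as none. The sources used here do not give the strain or age of the mice, the deleted stretch of Trappc1, the cells in which it was deleted or what a library number stands for. Neither is it said that the libraries of a group came from separate animals, so the p-values measure the spread between libraries, part of which may be technical.

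Monocytes arise from CMP through GMP and related progenitors, and leave the marrow for the blood and tissues, where some become macrophages. Csf1r, the receptor for M-CSF and IL-34, is needed for most macrophages. Ccr2 and Cx3cr1 are chemokine receptors that separate the inflammatory Ly6C-high monocytes, which carry much Ccr2, from the patrolling Ly6C-low monocytes, which carry much Cx3cr1. Bulk RNA from sorted cells cannot tell fewer cells of a type from less RNA per cell, and this holds for every value that follows.

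On the mouse genome (GRCm38, GENCODE M21 models), F13a1 and Ly86 lie near each other on chromosome 13, at 36867178 to 37050244 on the minus strand and 37345208 to 37419036 on the plus strand. Ly6c1 (75044018 to 75048830) and Ly6c2 (75108158 to 75111970) are neighbours on the minus strand of chromosome 15, and Ccr2 (124101950 to 124113557, plus) and Cx3cr1 (119901616 to 120069879, minus) lie on chromosome 9. Fn1 is on chromosome 1 (71585520 to 71653200, minus), Itgam on chromosome 7 (128062640 to 128118491, plus), Emr1 on chromosome 17 (57358691 to 57483527, plus) and Csf1r on chromosome 18. The annotated spans of Csf1r, Cx3cr1, Fn1 and F13a1 overlap genes on the other strand, and those of Csf1r, Cx3cr1 and Itgam overlap genes on their own strand.

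A few properties of the libraries bear on all results. Deposited library totals ran from 61278415 to 120299543 units, and how many units stand for 1 sequenced fragment is not known. Levels are given in CPM, the customary count unit that divides a gene's value by the total of its library, after scaling by the trimmed mean of M values (TMM). Trappc1 itself stood at 18.4 to 26.2 CPM in WT CMP and 30.9 to 41.3 CPM in WT GMP, at 5.56, 3.83, 11.7 and 13.4 CPM in KO CMP 1 to 4, and at 6.09, 24.1 and 25.2 CPM in KO GMP 1, 3 and 4. Every KO library was below every WT library of its cell type. In libraries 1 and 2 it was 4.76-fold lower in KO than in WT in CMP (adjusted p = 1.03e-05) and 6.43-fold lower in GMP (adjusted p = 3.61e-05), and in libraries 3 and 4 it was 1.75-fold lower (adjusted p = 0.263) and 1.30-fold lower (adjusted p = 1). The difference between the sets passed in both cell types (adjusted p = 0.00689 in CMP, 0.000774 in GMP). Without the position of the deletion, these reads do not show how much of the gene's product was lost. Xist, the RNA of the inactive X chromosome, was at 109, 204 and 123 CPM in KO CMP 1, KO CMP 2 and KO GMP 1, and at 2.17 CPM or less in the other 12 libraries. These 3 libraries stood apart in most of what follows, and results are given with and without them. Comparisons within libraries 1 and 2 and within libraries 3 and 4 come from 1 fit of all libraries. That fit shares its estimate of the spread between the sets, so the p-values of the 2 sets are not independent. KO GMP had a single library numbered 1 or 2, so its values in that set rest on 1 library that was assumed to vary like the others.

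**Figure D1:**
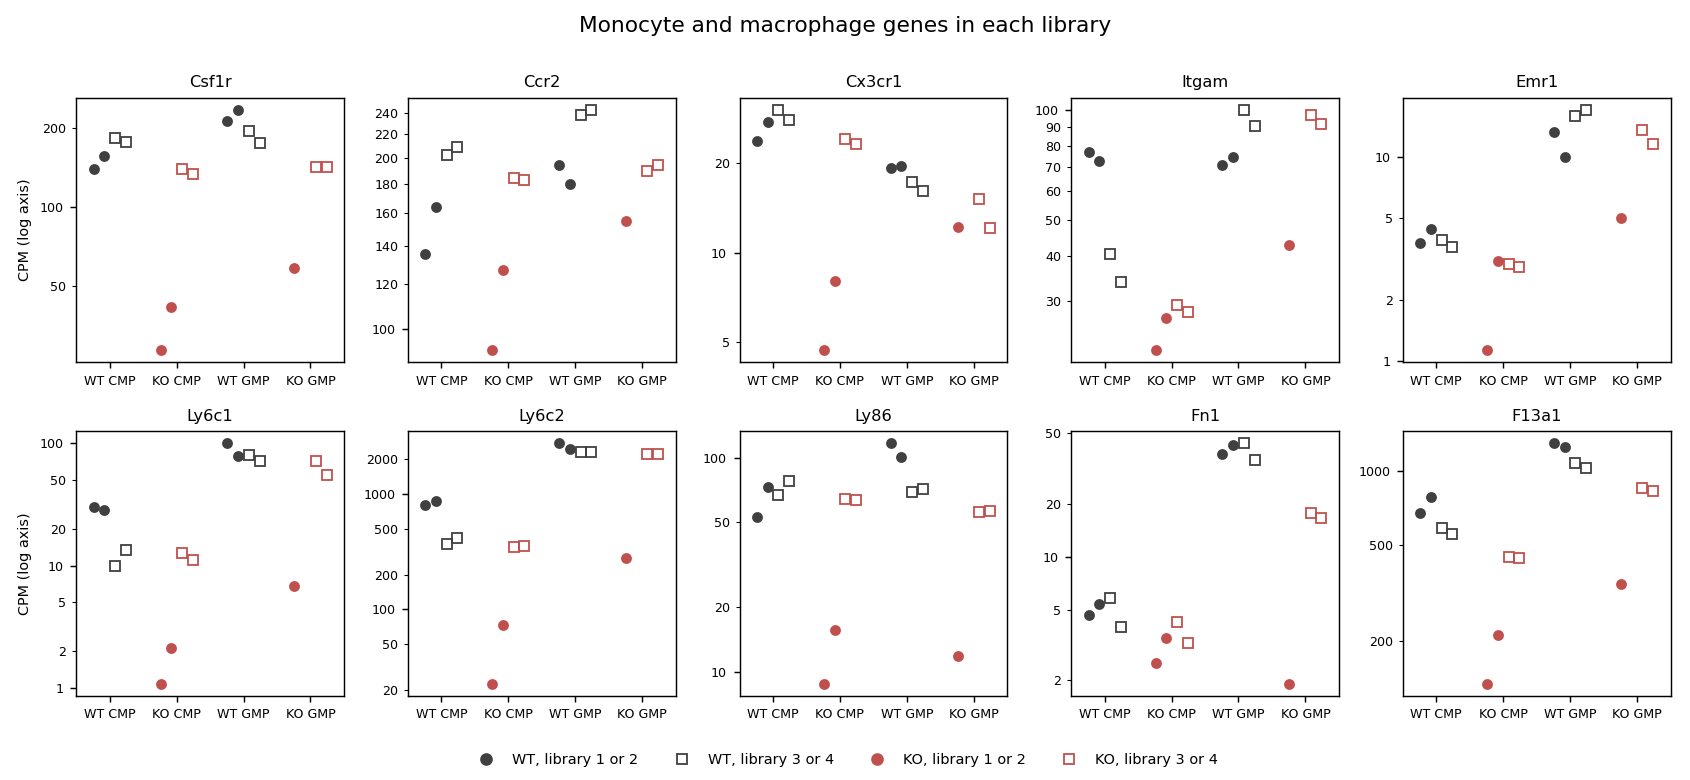
TMM-scaled CPM (log axis) of the 10 genes in each of the 15 libraries, by group. Filled circles are libraries 1 and 2, open squares libraries 3 and 4, dark for WT and red for KO. Ly6c1 ranged from 1.07 CPM in KO CMP 1 to 100.1 CPM in WT GMP 1.

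Levels were set beside each other between genes per kilobase of all annotated exons of a gene joined (GENCODE M21). The annotation used for counting is not stated, so the order is approximate. For Ly6c2 the joined exons span 2740 bases, while its coding transcripts hold 817 distinct stretches of 50 bases, so its level may be understated. In WT CMP, Ly6c2 was the highest at 222 ± 92.5 CPM per kb (SD, n = 4), followed by F13a1 at 96.3 ± 15.6. Csf1r at 28.3 ± 3.46 and Ccr2 at 26.2 ± 5.08 lay within 1 SD of each other, as did Ly6c1 at 12.2 ± 6.16 and Itgam at 11.1 ± 4.36. Ly86 stood between these pairs at 18.6 ± 3.01. Cx3cr1 at 6.05 ± 0.587, Emr1 at 1.22 ± 0.108 and Fn1 at 0.427 ± 0.0712 were the lowest. In WT GMP the order began in the same way, with Ly6c2 at 889.9 ± 74.8 and F13a1 at 174 ± 19.5 CPM per kb, and Ly6c1 at 49.3 ± 7.27 was next. Csf1r at 35.3 ± 4.30 and Ccr2 at 31.6 ± 4.64 again lay within 1 SD. Emr1 at 4.34 ± 0.970, Cx3cr1 at 4.01 ± 0.365 and Fn1 at 3.43 ± 0.338 closed the list and were not separated by their spread, apart from Cx3cr1 and Fn1, which differed by more than 1 SD of either.

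Among the receptors, Csf1r was read at 139, 155, 182 and 177 CPM in WT CMP 1 to 4, and at 28.3, 41.6, 139 and 134 CPM in KO CMP 1 to 4. In WT GMP it was at 212, 233, 195 and 175 CPM, and in KO GMP 1, 3 and 4 at 58.2, 142 and 141 CPM. KO CMP 1 and 2 and KO GMP 1 were far below all others, and KO GMP 3 and 4 also lay below every WT GMP library. KO CMP 3, at 139.4 CPM, was just above the lowest WT CMP library, at 138.95 CPM, and KO CMP 4 was below every WT CMP library. The log2 change of KO against WT was -0.93 ± 0.42 in CMP (SE; adjusted p = 0.41), and the GMP value was -0.84 ± 0.46 (adjusted p = 0.815), by edgeR's quasi-likelihood test with Benjamini-Hochberg adjustment over all tested genes, the test used throughout unless another is named.

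Ccr2, the receptor for the chemokine CCL2 that draws monocytes out of the marrow, varied least. Its values were 135, 164, 202 and 209 CPM in WT CMP, and 91.5, 127, 184 and 182 CPM in KO CMP. WT GMP held 194, 179.8, 238 and 243 CPM, and KO GMP 1, 3 and 4 held 155, 189.7 and 194 CPM. In both genotypes libraries 3 and 4 were higher than libraries 1 and 2 of their group, and KO and WT overlapped in both cell types. The KO log2 changes were -0.28 ± 0.20 (adjusted p = 0.662) in CMP and -0.25 ± 0.22 (adjusted p = 0.978) in GMP.

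Cx3cr1, the fractalkine receptor, was the one member lower in WT GMP than in WT CMP in every library. It stood at 23.7, 27.4, 30.1 and 27.8 CPM in WT CMP and at 19.3, 19.5, 17.3 and 16.1 CPM in WT GMP. Complete separation of this kind, GMP below CMP, was seen for 17.0% of tested genes. KO CMP 1 to 4 held 4.70, 8.02, 24.1 and 23.1 CPM, and KO GMP 1, 3 and 4 held 12.2, 15.2 and 12.1 CPM. KO GMP 1 was therefore no lower than KO GMP 4, in contrast to its Csf1r value. All KO GMP libraries were below all WT GMP libraries, but the fitted change was -0.46 ± 0.40 (adjusted p = 0.978). Cx3cr1's annotated span also crosses Ttc21a, Gorasp1 and other genes, and without knowing whether counting used strand its reads cannot be told from theirs where exons overlap.

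Of the surface genes, Itgam encodes CD11b, the alpha chain of the integrin Mac-1. It was at 76.7, 72.6, 40.4 and 33.9 CPM in WT CMP 1 to 4 and at 22.0, 26.9, 29.2 and 28.0 CPM in KO CMP. WT GMP had 70.8, 74.4, 100.3 and 90.6 CPM, and KO GMP 1, 3 and 4 had 42.8, 97.4 and 91.7 CPM. The 4 KO CMP libraries lay close together below all WT CMP libraries, while in GMP only KO GMP 1 lay below the WT range. The KO log2 change was -1.08 ± 0.28 in CMP (adjusted p = 0.202), with the smallest unadjusted p of the 10 genes there (0.00163), and the GMP value was -0.12 ± 0.30 (adjusted p = 1).

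Emr1, now named Adgre1, encodes the macrophage antigen F4/80. It was scarce in CMP, at 3.81, 4.45, 3.93 and 3.64 CPM in WT and 1.13, 3.10, 2.98 and 2.90 CPM in KO. In GMP it was at 13.2, 9.99, 16 and 17.0 CPM in WT and at 5.02, 13.6 and 11.6 CPM in KO libraries 1, 3 and 4. Every KO CMP library was below every WT CMP library, and KO CMP 1 was the lowest, with 83 deposited units behind its value. The KO log2 changes were -0.64 ± 0.32 (adjusted p = 0.475) in CMP and -0.48 ± 0.35 (adjusted p = 0.922) in GMP.

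Ly6c1 and Ly6c2 are neighbouring genes for the 2 Ly6C antigens, and Ly6C is the surface marker that ranks monocytes as high or low. Ly6c2 was at 793, 858, 369 and 411 CPM in WT CMP and at 22.7, 73.2, 349 and 355 CPM in KO CMP. It stood at 2721, 2456, 2272 and 2305 CPM in WT GMP, against 279, 2189 and 2192 CPM in KO GMP 1, 3 and 4. Ly6c1 was far lower, with 30.2, 28.5, 9.97 and 13.4 CPM in WT CMP and 1.07, 2.10, 12.7 and 11.0 CPM in KO CMP. In GMP it was at 100.1, 79.2, 79.8 and 71.6 CPM in WT and 6.84, 71.5 and 54.9 CPM in KO. KO CMP 1 and 2 and KO GMP 1 were far below every WT library of their cell type for both genes, and KO CMP 3 and 4 were close to WT CMP 3 and 4. The KO log2 changes in CMP were -1.60 ± 0.72 for Ly6c1 (adjusted p = 0.41) and -1.60 ± 0.72 for Ly6c2 (adjusted p = 0.407), and in GMP -0.90 ± 0.77 (adjusted p = 0.97) and -0.65 ± 0.77 (adjusted p = 1).

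The 2 genes share sequence, so their separate values are uncertain. Of the windows of 50 bases in the coding transcripts of Ly6c2, 30.8% also occur in Ly6c1, and the reverse share is 14.3%. The ratio of Ly6c2 to Ly6c1 nevertheless varied, from 21.1 to 34.9 in KO CMP, 26.3 to 37.0 in WT CMP, 27.2 to 32.2 in WT GMP and 30.6 to 40.8 in KO GMP. With both summed, the KO log2 change was -1.60 ± 0.72 in CMP (adjusted p = 0.407), and the GMP value was -0.66 ± 0.77 (adjusted p = 1).

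Promoter windows, from 250 bases before to 50 bases after an annotated start, were taken from the RefSeq table (GRCm38.p6). There were 10 windows, for 7 of the 10 genes. Windows of Csf1r, Fn1 and Emr1 were not searched, so the counts of sites given here do not cover these genes. The 10 windows were searched on both strands for GAGGAAGT, a core site of PU.1, the ETS factor on which the myeloid lineage depends. It occurred in 4 windows of 3 genes, F13a1, Ly6c1 and Ly6c2, against 3.20% of 32851 windows of all genes. Both Ly6c2 windows overlap and hold the same sites, so these are 3 separate stretches, of which those of Ly6c1 and Ly6c2 belong to related genes. The windows are shown because they hold that match in 3 genes whose level differed widely between libraries. They are written on the gene's strand with the 8 matching bases in capitals.

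Ly6c2, chr15:75111922-75112221, minus strand: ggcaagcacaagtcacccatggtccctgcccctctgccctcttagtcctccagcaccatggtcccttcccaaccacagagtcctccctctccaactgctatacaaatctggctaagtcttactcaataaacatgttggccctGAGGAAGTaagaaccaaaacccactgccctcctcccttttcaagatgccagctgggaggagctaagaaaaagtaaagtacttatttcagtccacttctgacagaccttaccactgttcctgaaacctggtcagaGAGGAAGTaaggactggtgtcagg

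Ly6c1, chr15:75048614-75048913, minus strand: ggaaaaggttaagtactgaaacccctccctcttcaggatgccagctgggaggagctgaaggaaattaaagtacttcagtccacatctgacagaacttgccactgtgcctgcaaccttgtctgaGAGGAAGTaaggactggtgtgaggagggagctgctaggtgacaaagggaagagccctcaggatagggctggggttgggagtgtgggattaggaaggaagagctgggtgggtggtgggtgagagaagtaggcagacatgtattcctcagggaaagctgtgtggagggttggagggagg

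F13a1, chr13:37049164-37049463, minus strand: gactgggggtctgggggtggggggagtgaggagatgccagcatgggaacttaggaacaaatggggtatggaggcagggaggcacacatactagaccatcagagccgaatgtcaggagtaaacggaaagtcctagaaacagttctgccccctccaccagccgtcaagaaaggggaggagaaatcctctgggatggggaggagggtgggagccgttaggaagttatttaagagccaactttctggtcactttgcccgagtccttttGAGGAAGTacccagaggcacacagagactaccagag

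The Ly6c2 window holds the 8 bases at 2 places and the others at 1 each. The ETS-IRF composite element was in no window of the 10 and in 2.72% of all windows, and the GATA core AGATAA was in the Ccr2 window and in 11.2% of all. F13a1 and Ly6c1 each have a second start whose window lacks the full GAGGAAGT. The 2 Ly6c1 windows overlap, and the one that lacks it ends inside the same site. A match describes these letters only, and binding was not measured.

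Ly86 encodes MD-1, the secreted partner that the receptor CD180 needs to reach the surface. It was at 52.8, 73.3, 66.8 and 77.8 CPM in WT CMP and at 8.78, 15.6, 64.2 and 63.7 CPM in KO CMP. WT GMP had 117, 101, 68.8 and 71.1 CPM, and KO GMP 1, 3 and 4 had 11.9, 55.9 and 56.6 CPM. KO CMP 1 and 2 were the lowest CMP libraries, KO CMP 3 and 4 lay within the WT CMP range, and all KO GMP libraries lay below all WT GMP libraries. The KO log2 changes were -0.83 ± 0.56 (adjusted p = 0.626) in CMP and -1.11 ± 0.61 (adjusted p = 0.826) in GMP.

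The secreted members are Fn1, fibronectin of the extracellular matrix, and F13a1, the A chain of coagulation factor XIII, a transglutaminase that cross-links fibrin and fibronectin. Fn1 was low in CMP of both genotypes, at 4.68, 5.43, 5.87 and 3.99 CPM in WT and 2.51, 3.45, 4.26 and 3.23 CPM in KO. In WT GMP it was at 38.0, 42.8, 43.8 and 35.5 CPM, and in KO GMP 1, 3 and 4 at 1.91, 17.7 and 16.6 CPM. No other member had KO GMP 3 and 4 so far under the lowest WT GMP library. The KO log2 change was -1.73 ± 0.49 in GMP (unadjusted p = 0.0032, adjusted p = 0.539) and -0.57 ± 0.44 in CMP (adjusted p = 0.684).

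F13a1 was at 672, 788, 583 and 553 CPM in WT CMP and at 134, 212, 446 and 441 CPM in KO CMP. WT GMP had 1305, 1257, 1085 and 1033 CPM, and KO GMP 1, 3 and 4 had 345, 855 and 834 CPM. KO was below WT in every library of both cell types. The log2 changes were -1.07 ± 0.34 (adjusted p = 0.258) in CMP and -0.79 ± 0.37 (adjusted p = 0.77) in GMP.

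Taking the 10 genes as a list, the fitted KO change was below 0 for all 10 in CMP, with a median log2 change of -0.90, and for all 10 in GMP, with a median of -0.72. The medians of all tested genes were 0.01 and 0.01. No member passed an adjusted p of 0.05 by edgeR in CMP (0.0% of all genes were called lower there) or in GMP (0.0%). At an unadjusted p under 0.05, 6 members were lower in CMP (Csf1r, Cx3cr1, Itgam, Ly6c1, Ly6c2 and F13a1), where 6.92% of all genes were, and 1 in GMP (Fn1), where 2.0% were. DESeq2 called 2 members lower in CMP, Itgam (adjusted p = 0.00882) and F13a1 (adjusted p = 0.0352), against 1.53% of genes, and 1 in GMP, Fn1 (adjusted p = 0.0387), against 0.079%. The KO group lay wholly below the WT group for 4 members in CMP (Itgam, Ly6c2, Emr1 and F13a1; 3.6% of all genes) and for 7 in GMP (Csf1r, Cx3cr1, Fn1, Ly6c1, Ly6c2, Ly86 and F13a1; 3.7%).

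The KO effect was also compared between the cell types, since a change seen in one need not differ from the other. By edgeR no member differed (0.0% of all genes did), and DESeq2 called none. At an unadjusted p under 0.05 the effect was lower in CMP for Itgam alone, with a log2 difference of -0.95 ± 0.40 (edgeR, unadjusted p = 0.0325, adjusted p = 1), where 2.12% of genes were. For Fn1 the difference was 1.16 ± 0.64 (adjusted p = 1). The 95% intervals of the other differences reached from -3.16 for the lowest bound (Ly6c2) to 2.03 for the highest (Ly86). For genes with intervals as wide as these, differences of several fold could not be detected. Narrower intervals were those of Ccr2, from -0.67 to 0.61, and Emr1, from -1.16 to 0.84.

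**Figure D2:**
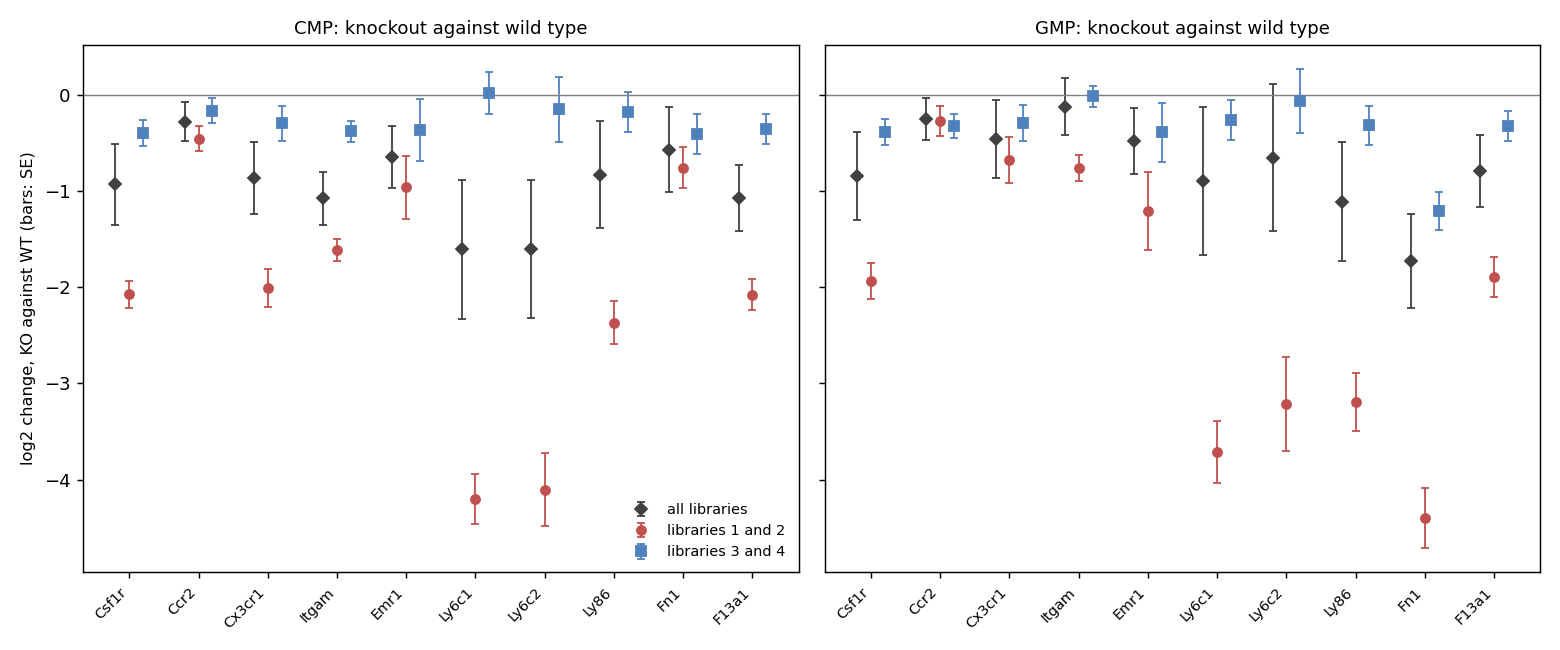
Fitted log2 change of KO against WT for each gene in CMP (left) and GMP (right), with all libraries (diamonds), libraries 1 and 2 (circles) and libraries 3 and 4 (squares). Bars are standard errors. In CMP the circles of Ly6c1 and Ly6c2 lie at -4.20 and -4.10 and their squares at 0.02 and -0.15.

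Within libraries 1 and 2, all 10 monocyte genes were lower in KO than in WT, by widely differing amounts. In CMP these ran from 1.37-fold for Ccr2 to 18.4-fold for Ly6c1. In this set every KO library held Xist, and the WT libraries had 2.17 CPM of it or less. Genotype and the difference in Xist therefore cannot be told apart in any comparison of KO with WT in libraries 1 and 2. In CMP, 9 of 10 were called lower, against 10.2% of all genes. Ly6c1 was 18.4-fold lower (log2 -4.20 ± 0.26, adjusted p = 4.07e-07) and Ly6c2 17.2-fold lower (-4.10 ± 0.38, adjusted p = 1.16e-05). Ly86 was 5.16-fold, F13a1 4.22-fold, Csf1r 4.21-fold, Cx3cr1 4.01-fold and Itgam 3.05-fold lower. The smallest called changes were those of Fn1 (-0.76 ± 0.21, adjusted p = 0.0273) and Ccr2 (-0.46 ± 0.13, adjusted p = 0.0271), and both lost the call when KO CMP 1 or WT CMP 2 was left out, as did Fn1 without WT CMP 1. Emr1 changed by -0.96 ± 0.33 (adjusted p = 0.0644) and was called without KO CMP 2, by DESeq2 (adjusted p = 0.0279), without the filter on low values (0.0401) and with values divided by 4 (0.0463).

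In GMP, libraries 1 and 2, 7 of 10 were called lower, against 9.0% of all genes. The KO side here is the single library KO GMP 1, whose spread was not measured, so genotype and that library cannot be told apart in these values. Fn1 had the largest change, 21.1-fold lower (log2 -4.40 ± 0.31, adjusted p = 2.47e-06), then Ly6c1 at 13.1-fold, Ly6c2 at 9.28-fold and Ly86 at 9.15-fold. Csf1r was 3.83-fold, F13a1 3.72-fold and Itgam 1.70-fold lower. Emr1 (-1.21 ± 0.41, adjusted p = 0.0554), Cx3cr1 (-0.68 ± 0.24, adjusted p = 0.0655) and Ccr2 (-0.27 ± 0.16, adjusted p = 0.257) did not pass. Emr1 was called by DESeq2 (adjusted p = 0.0159), without the filter (0.0382) and with values divided by 4 (0.0237), and Cx3cr1 by DESeq2 (0.0357) and with values divided by 4 (0.0483).

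Within libraries 3 and 4, where Xist was near 0 and Trappc1 itself was not called lower, the changes were smaller. In CMP, 9 of 10 were below 0 with a median of -0.33, and none was called by edgeR (0.0% of all genes) or by DESeq2 (0.408%). At an unadjusted p under 0.05 there were 3, against 5.21% of genes: Csf1r at -0.40 ± 0.14, Itgam at -0.38 ± 0.11 and F13a1 at -0.36 ± 0.16. Ly6c1 stood at 0.02 ± 0.22, with a 95% interval from -0.45 to 0.49, against 18.4-fold lower in libraries 1 and 2. In GMP all 10 were below 0, with a median of -0.32, and none was called by edgeR, where 0.00659% of genes were. At an unadjusted p under 0.05 there were 3, Fn1, Csf1r and Ccr2, against 3.12% of genes. Fn1 was 2.31-fold lower there (log2 -1.21 ± 0.20, unadjusted p = 4.93e-05, adjusted p = 0.0822). DESeq2 called it (adjusted p = 3.78e-05), 1 member against 0.191% of genes, and edgeR called it without the filter on low values (adjusted p = 0.0207) and with the values divided by 4 (adjusted p = 0.0258).

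The difference of the KO effect between the library sets was tested directly. In CMP it was larger in libraries 1 and 2 for 7 members, against 4.59% of all genes lower in this way: Ly6c1 (-4.22 ± 0.34), Ly6c2 (-3.96 ± 0.50), Ly86 (-2.19 ± 0.30), F13a1 (-1.72 ± 0.22), Cx3cr1 (-1.71 ± 0.27), Csf1r (-1.68 ± 0.19) and Itgam (-1.23 ± 0.15). In GMP, with KO GMP 1 alone behind libraries 1 and 2, it was larger for 7 members too, against 4.36%: Ly6c1 (-3.45 ± 0.37), Fn1 (-3.19 ± 0.35), Ly6c2 (-3.15 ± 0.57), Ly86 (-2.88 ± 0.35), F13a1 (-1.57 ± 0.25), Csf1r (-1.55 ± 0.22) and Itgam (-0.75 ± 0.17). Ccr2 and Emr1 passed in neither cell type, although both passed in CMP without KO CMP 2. The Itgam call in GMP was lost without KO GMP 3 or without WT GMP 4. With the 3 libraries that hold Xist left out and the rest kept together, no member was called in CMP or GMP. The share of all genes called in this setting is not reported here. Ccr2 in CMP then stood at 0.03 and Itgam in GMP at 0.17, and the other changes stayed below 0. This setting compares KO libraries 3 and 4 with all WT libraries, so library number is not balanced between the genotypes. Within libraries 3 and 4 the KO change was -0.16 ± 0.13 for Ccr2 in CMP and -0.01 ± 0.11 for Itgam in GMP.

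Library number separated the WT libraries as well. In CMP, WT libraries 1 and 2 had more Itgam (log2 1.01 ± 0.11, adjusted p = 6.83e-05), Ly6c1 (1.33 ± 0.22, adjusted p = 0.00127) and Ly6c2 (1.08 ± 0.34, adjusted p = 0.0394) than libraries 3 and 4, where 12.3% of genes were higher, and less Ccr2 (-0.46 ± 0.13, adjusted p = 0.0241), where 10.6% were lower. In GMP they had less Itgam (-0.39 ± 0.11, adjusted p = 0.0414), with 5.45% of genes lower. The Ly6c2 call in CMP and the Itgam call in GMP were lost whichever 1 of the 4 WT libraries was left out, and the Ccr2 call without WT CMP 1 or WT CMP 4. WT CMP 1 and 2, against which KO CMP 1 and 2 are set, were thus themselves high in Ly6c1, Ly6c2 and Itgam.

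Fcgr3 and Fcgr2b, which encode the CD16 and CD32 antigens used to gate CMP from GMP, were lower in KO in libraries 1 and 2 of CMP, and Fcgr3 also in GMP. Fcgr3 was at 99.5 and 115 CPM in WT CMP 1 and 2, at 36.6 and 39.3 CPM in WT CMP 3 and 4, at 12.9 and 18.8 CPM in KO CMP 1 and 2, and at 31.1 and 28.1 CPM in KO CMP 3 and 4. In GMP it was at 239 to 315 CPM in WT, 125 CPM in KO GMP 1 and 311 and 295 CPM in KO GMP 3 and 4. Fcgr2b was at 105 CPM in KO GMP 1, against 113 and 105 CPM in WT GMP 1 and 2. In libraries 1 and 2 of CMP, the KO change was -2.76 ± 0.15 for Fcgr3 and -0.89 ± 0.07 for Fcgr2b. Cd34, Kit (CD117) and Ly6a (Sca1), the other listed sorting markers, had fitted KO changes above 0 with all libraries, none called. They were 0.25 ± 0.25, 0.08 ± 0.12 and 0.46 ± 0.49 in CMP, and 0.31 ± 0.27, 0.26 ± 0.13 and 0.92 ± 0.54 in GMP. All 5 sorting markers summed to 1233 and 1203 CPM in KO CMP 1 and 2, against 1044 and 1156 CPM in WT CMP 1 and 2. KO GMP 1 had 1202 CPM, against 996 and 973 CPM in WT GMP 1 and 2. How far the position of the sort gate enters the results on the monocyte genes was not tested.

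From CMP to GMP in WT, Fn1 was 8.01-fold higher (log2 3.0 ± 0.46, adjusted p = 0.000628) and Emr1 3.55-fold higher (1.83 ± 0.33, adjusted p = 0.00152), the 2 members called among 11.3% of all genes called higher. Ly6c1 at 4.03-fold (adjusted p = 0.0557) and Ly6c2 at 4.01-fold (adjusted p = 0.0568) just missed the threshold, and F13a1 was 1.80-fold higher (adjusted p = 0.0825). All 5 of these genes had every WT GMP library above every WT CMP library, as 14.8% of genes did. Itgam changed by 0.59 ± 0.28 (adjusted p = 0.132), Cx3cr1 by -0.59 ± 0.37 (adjusted p = 0.263), Ly86 by 0.40 ± 0.55, Csf1r by 0.32 ± 0.42 and Ccr2 by 0.27 ± 0.20. DESeq2 called 5, adding Ly6c1, Ly6c2 and F13a1, and the share of all genes that it called in this step is not reported here. These comparisons use the same WT libraries as those of KO with WT and are not independent of them.

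Within the library sets the step could be read more closely. In WT libraries 1 and 2, 7 members were higher in GMP, against 11.0% of genes: Fn1 (7.99-fold), Ly6c2 (3.14-fold), Ly6c1 (3.05-fold), Emr1 (2.81-fold), F13a1 (1.75-fold), Ly86 (1.73-fold) and Csf1r (1.51-fold). In WT libraries 3 and 4, 6 were higher, against 19.2%: Fn1 (8.02-fold), Ly6c1 (6.49-fold), Ly6c2 (5.87-fold), Emr1 (4.36-fold), Itgam (2.57-fold) and F13a1 (1.86-fold). Cx3cr1 was lower there (-0.79 ± 0.19, adjusted p = 0.00494), as 19.3% of genes were. Fn1 rose by nearly the same amount in both sets, and Itgam changed by -0.04 ± 0.11 in libraries 1 and 2, but whether these steps differ between the sets was not tested. In libraries 1 and 2, the calls of Csf1r, Emr1 and Ly86 were lost without WT CMP 1, that of Csf1r also without WT GMP 2 and that of Ly86 without WT GMP 1.

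**Figure D3:**
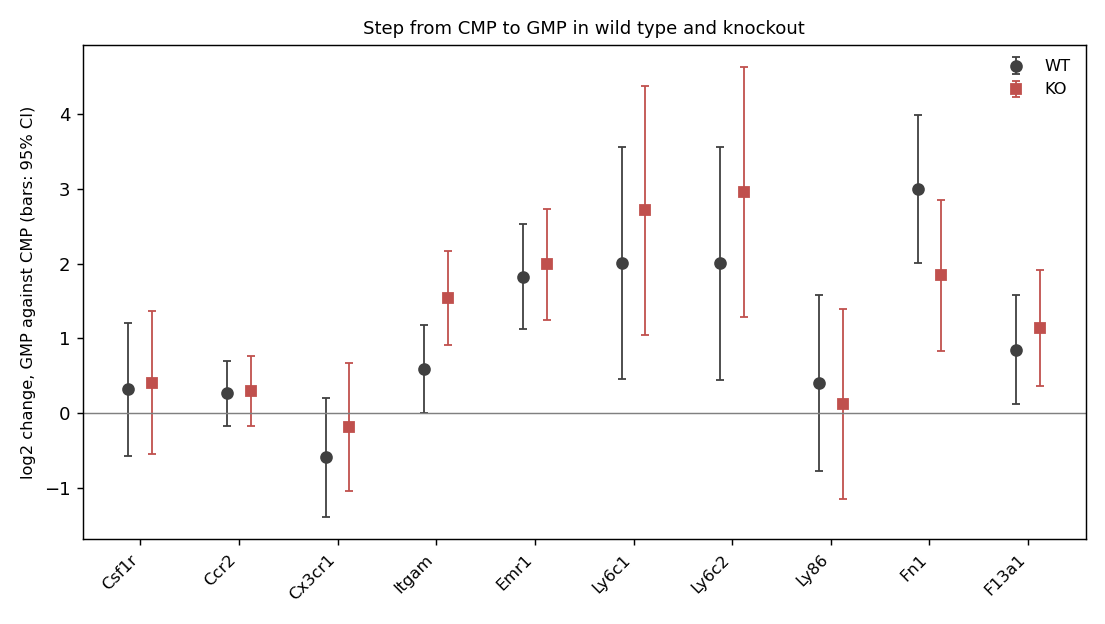
Fitted log2 change of GMP against CMP for each gene in WT (dark circles) and KO (red squares), with all libraries. Bars are 95% confidence intervals. Fn1 lies at 3.0 in WT and 1.84 in KO, Itgam at 0.59 and 1.54.

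In KO, 6 members were called higher in GMP than in CMP, against 10.7% of all genes: Ly6c2 (7.76-fold), Ly6c1 (6.57-fold), Emr1 (3.97-fold), Fn1 (3.58-fold), Itgam (2.91-fold) and F13a1 (2.20-fold). None was called lower, as 10.5% of genes were. Without the 3 libraries that hold Xist, Cx3cr1 was called lower in GMP of KO (-0.79, adjusted p = 0.00294). Itgam and Emr1 had every KO GMP library above every KO CMP library, as 13.4% of genes did. The difference between the KO and WT steps is the same quantity as the difference of the KO effect between cell types, and no member passed that test. Without KO GMP 3 or without KO GMP 4, 2 members remained called, since Fn1, Ly6c1, Ly6c2 and F13a1 lost the threshold. Without KO CMP 1 or KO CMP 2, F13a1 was not called (adjusted p = 0.0721 and 0.0938), and without KO CMP 2 Ly6c1 was not (adjusted p = 0.0538).

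Ligands and binding partners of the 10 genes form a list of 18, of which 16 were tested. In GMP against CMP of WT, 4 were higher and 3 lower, where 11.3% of all genes were higher and 14.2% lower. Csf1, the M-CSF ligand of Csf1r, rose (log2 1.06 ± 0.17, adjusted p = 0.000741), from 11.5 to 14.5 CPM in WT CMP to 23.9 to 32.1 CPM in WT GMP. Fcer1g, an adaptor chain of Fc receptors, rose too (0.93 ± 0.20, adjusted p = 0.00489). Cx3cl1, the ligand of Cx3cr1, fell (-2.89 ± 0.45, adjusted p = 0.000671), as did Cd180, the receptor that Ly86 serves (-0.78 ± 0.14, adjusted p = 0.0014), and Tgm2, a second transglutaminase (-5.24 ± 1.04, adjusted p = 0.00287). Cx3cl1 was at most 2.06 CPM in any library. None of the 16 was called in KO against WT with all libraries, in CMP or GMP. Those with the smallest p in CMP included Tyrobp (-0.76 ± 0.29, adjusted p = 0.324) and Fcer1g (-0.50 ± 0.20, adjusted p = 0.358).

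In libraries 1 and 2 of CMP, 2 partners were higher and 4 lower in KO, where 8.23% of all genes were higher and 10.2% lower. The log2 change was -1.42 ± 0.13 for Tyrobp, the adaptor DAP12, and -0.89 ± 0.07 for Fcer1g. Tgm2 rose by 1.42 ± 0.27. Itgb2 encodes the beta chain that pairs with Itgam, and its change there was -0.08 ± 0.15, beside -1.61 ± 0.11 for Itgam. The difference between the 2 genes was not tested.

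A list of 40 other monocyte and macrophage genes was tested in full. In the WT step from CMP to GMP, 11 rose and 3 fell, against 11.3% and 14.2% of all genes, with a median log2 change of 0.48. Lysozyme Lyz2 rose by 0.98 ± 0.17 (adjusted p = 0.00134), the lysosomal protease Ctsb by 0.67 ± 0.13, the GM-CSF receptor chain Csf2ra by 0.98 ± 0.24, the inhibitory receptor Sirpa by 0.66 ± 0.16 and Ms4a6d by 1.72 ± 0.42. In KO against WT with all libraries none passed in either cell type, and 30 of 40 were below 0 in CMP, with a median of -0.35. Lair1, an inhibitory collagen receptor, had the smallest p (-0.98 ± 0.23, adjusted p = 0.192), then Cd300a (-0.54 ± 0.16), Sirpa (-0.55 ± 0.16) and Ctsb (-0.43 ± 0.13).

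In libraries 1 and 2 of CMP, 18 of the 40 were lower and 2 higher in KO, against 10.2% and 8.23% of all genes, with Clec12a at -2.66 ± 0.12, Ms4a6c at -1.45 ± 0.10, Lair1 at -1.35 ± 0.08 and Sirpa at -0.91 ± 0.07, all called. In GMP of the same set 13 were lower and 6 higher, against 9.0% and 11.0%. In libraries 3 and 4 none was called in CMP or GMP, and 32 of 40 were below 0 in each, with medians of -0.24 and -0.12.

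Among 15 transcription factors of the monocyte branch, 2 rose and 7 fell from CMP to GMP in WT, against 11.3% and 14.2% of all genes. Those with the smallest p all fell, with log2 changes of -3.61 ± 0.39 for Nr4a1, needed for Ly6C-low monocytes, -1.71 ± 0.25 for Egr1, -1.54 ± 0.29 for Tcf7l2, -0.94 ± 0.20 for Nab2 and -0.41 ± 0.09 for Runx3. In KO against WT in CMP none passed. Maf stood at 0.93 ± 0.50, Zeb2 at -0.43 ± 0.20 and Irf8, which directs progenitors to monocytes and away from neutrophils, at -0.89 ± 0.42 (adjusted p = 0.445). Irf8 was at 445, 436, 623 and 653 CPM in WT CMP and at 91.5, 152, 456 and 469 CPM in KO CMP. In libraries 1 and 2 of CMP, 4 of the 15 were higher and 6 lower, against 8.23% and 10.2%. There the log2 change was -1.86 ± 0.17 for Irf8, -0.60 ± 0.13 for Zeb2 and -0.58 ± 0.09 for Sfpi1, the gene of PU.1, while Nr4a1 rose by 0.76 ± 0.15.

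**Figure D4:**
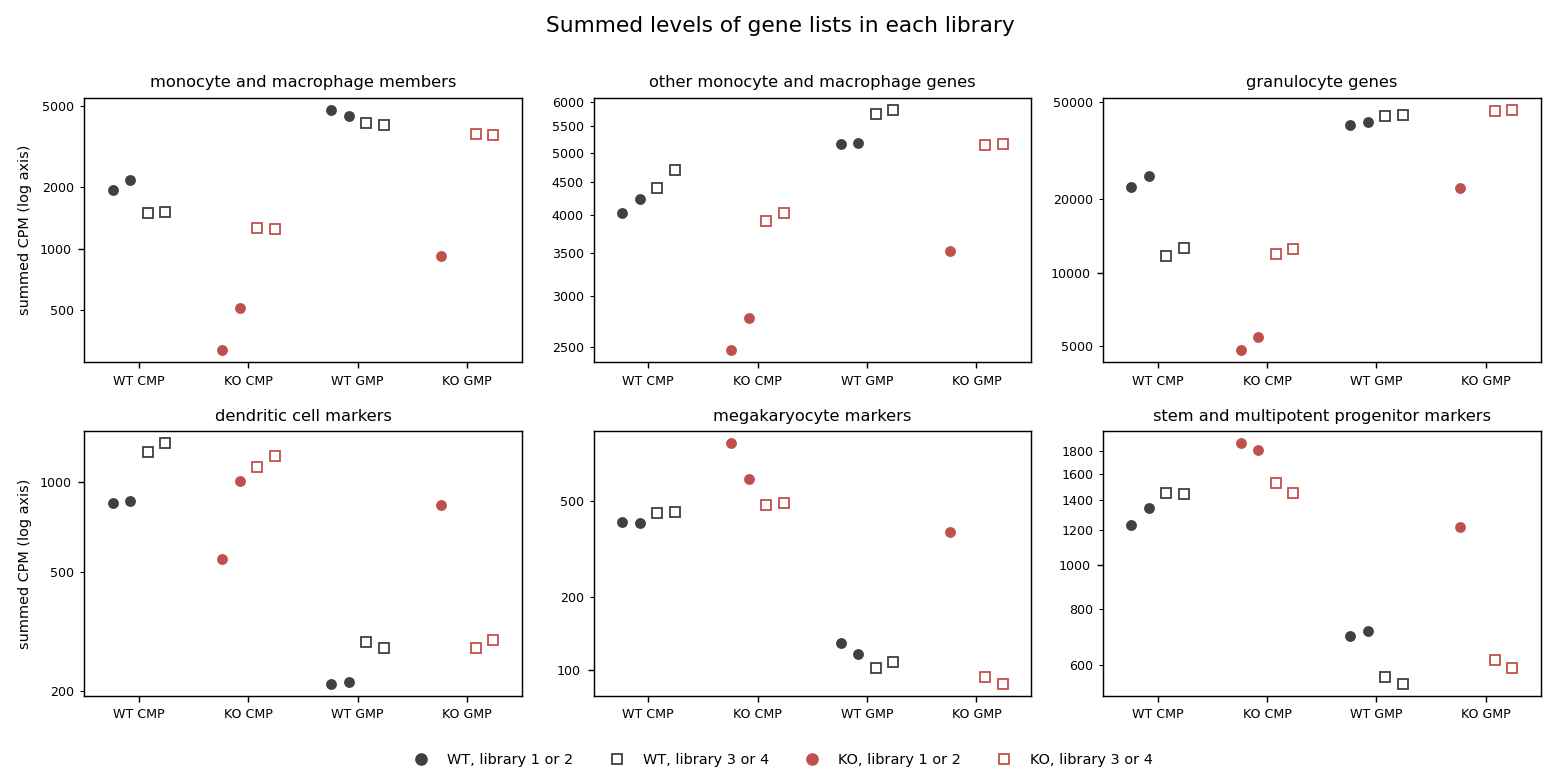
Summed TMM-scaled CPM (log axis) of 6 gene lists in each library, by group, with symbols as in the plot of single genes. The 10 monocyte genes sum to 316 and 513 CPM in KO CMP 1 and 2 and 917 CPM in KO GMP 1, and to 1244 CPM or more elsewhere.

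The 3 libraries low in the monocyte genes also differed in genes of other cell types, as the plot of summed levels shows. The 10 genes summed to 316 and 513 CPM in KO CMP 1 and 2, against 1931 and 2176 in WT CMP 1 and 2 and 1255 and 1244 in KO CMP 3 and 4. Summed granulocyte genes (18) were at 4793 and 5429.9 CPM in KO CMP 1 and 2, against 22526 and 24992 CPM in WT CMP 1 and 2. There 15 of 18 were called lower, against 10.2% of all genes. They were at 11696 to 12611 CPM in CMP 3 and 4 of both genotypes. KO GMP 1 had 22169.9 CPM, against 40532 to 46546 CPM in the other GMP libraries. In the WT step 10 of the 18 rose, where 11.3% of all genes were called higher.

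Stem and megakaryocyte markers were higher in the same libraries. In these contrasts 8.23% of all genes were called higher in CMP and 11.0% in GMP. Stem and multipotent progenitor markers (12) summed to 1869 and 1806 CPM in KO CMP 1 and 2, against 1232 and 1342 CPM in WT CMP 1 and 2, with 8 called higher, and to 1216 CPM in KO GMP 1, against 695 and 713 CPM in WT GMP 1 and 2, with 11 called higher. Megakaryocyte markers summed to 866 and 620.0 CPM, against 408 and 404 CPM, with 5 of 11 tested called higher, and to 373 CPM in KO GMP 1, against 129 and 116 CPM, with 10 of 11. Dendritic cell markers (13) were at 838 CPM in KO GMP 1, against 211 and 214 CPM in WT GMP 1 and 2, with 10 called higher. In CMP they had no call, at 554 and 1008 CPM in KO CMP 1 and 2 against 851 and 865 CPM in WT CMP 1 and 2.

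Markers of cells outside the gate were also read. Stromal and endothelial markers (14) summed to 314 and 384 CPM in KO CMP 1 and 2, against 165 to 241 CPM in the other CMP libraries. In libraries 1 and 2 of CMP, 9 were called higher and 1 lower, against 8.23% and 10.2% of all genes. In KO GMP 1 they were at 275 CPM, against 231 to 240.4 CPM, again with 9 higher and 1 lower. Pecam1, which blood progenitors also carry, was at 102 CPM or more in every library, Col1a1 was at 5.54, 12.7 and 2.67 CPM in the 3 libraries and at 0.714 CPM or less elsewhere, and Cdh5 was under 1 CPM in all libraries. T, NK and B cell markers (15) summed to 156 to 299 CPM in CMP, and in GMP to 281 CPM in KO GMP 1 against 402 to 492 CPM elsewhere. They had 1 call in CMP of libraries 1 and 2, where 8.23% of all genes were called higher and 10.2% lower. KO CMP 2 held 12.6 CPM of Cd79a, against 5.53 CPM or less elsewhere, and 2.53 CPM of Cd3e, against 0.367 CPM or less. Erythroid markers summed to 612 and 474 CPM in KO CMP 1 and 2, against 376 and 391 CPM in WT CMP 1 and 2, and to 324 CPM in KO GMP 1, against 280.2 and 277 CPM in WT GMP 1 and 2. The erythroid markers had 4 higher and 2 lower of 11 in CMP and 5 higher and 1 lower in GMP. No marker was at 0 in every library, and Gp6 and Tubb1 of the megakaryocyte list stayed under 1 CPM. The part of these markers in the monocyte gene results was not tested. In libraries 3 and 4 the 10 genes summed to 1255 and 1244 CPM in KO CMP against 1493 and 1509.7 CPM in WT CMP. They summed to 3647 and 3605 CPM in KO GMP against 4115 and 4057 CPM in WT GMP. Stem marker sums of that set were 1525 and 1452 CPM in KO CMP against 1450 and 1443 CPM in WT CMP. In GMP they were 613 and 590 CPM in KO against 564 and 544 CPM in WT. Granulocyte sums were 45969 and 46546 CPM in KO GMP against 43947 and 44536 CPM in WT GMP. Stromal sums were close in both cell types.

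Genes whose level most resembled each member over the 15 libraries were sought among 10113 other genes with a mean of at least 5 CPM, by Pearson correlation of log2 CPM, as a description. The libraries share groups and numbers, so high values follow from a few groups of points. Csf1r was most like Ms4a6c (r = 0.98), Unc93b1 and Pyhin1, and Ly86 like Ms4a6c (0.98), Tifa and Pyhin1. Ly6c1 was most like Asah1 (0.99), Mefv and Tmem150b, Ly6c2 like Mefv (0.99), Asah1 and Myo1f, and F13a1 like Gria3 (0.99), Clec7a and Asah1. Emr1 was nearest Ear3 (0.98), Soat1 and Ear1, and Itgam nearest Lin28a (0.99), Rhou and Ttc21a. Fn1 was nearest C1galt1c1 (0.96), Ctsc and Anxa5, and Cx3cr1 nearest Tmem229b (0.97), 5031439G07Rik and Stat2. Ccr2 had the lowest first neighbour, Anxa2 (0.94), followed by Lrrc61 and Cnpy3.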

How the data were processed

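Bulk RNA sequencing of 15 libraries (SMARTER mRNA-Seq kit, per the labels' protocols) was analysed from 1 table of gene-level values per library. The deposited values were handled like expected counts: whole numbers per gene symbol made by the authors with HISAT on mm10, per the submitters' processing notes, with the counter, annotation and use of strand not stated. Among low values 38.0% are multiples of 4, against 25.0% in an even spread. This excess does not settle how many units of the library totals (61278415 to 120299543 units) stand for 1 fragment. Dividing by 4 was used as an alternative. No 2 libraries held identical values.

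Values were rounded, filtered with filterByExpr, scaled by TMM and tested with edgeR 4.0.16 (R 4.3.3) by its quasi-likelihood test, with Benjamini-Hochberg adjustment over 15181 genes and a threshold of 0.05. One fit had 4 groups (11 residual degrees of freedom) and one the 8 combinations of group and library set (7 residual degrees of freedom). Alternatives were DESeq2 1.42.0, RLE factors, no filter, values divided by 4, a replicate block, the library set as a covariate, leaving out the 3 libraries that hold Xist, leaving out each library, and, chosen after seeing the data, Ly6c1 and Ly6c2 summed. Both fits were tested on simulated data. Same-numbered libraries of the groups compared deviated from their group means with correlations of 0.127 to 0.419. Libraries of different numbers were not compared in this way. Numbers were taken as pairing only in the replicate block, and neither main fit was paired.

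The members, gene lists and library sets were chosen with earlier results of these data known. All 10 members are named. From each of the 3 lists of related genes, up to 5 genes with the smallest p in GMP against CMP of WT and up to 4 with the smallest p in KO against WT of CMP, with all libraries and with libraries 1 and 2, were eligible to be named. Itgb2, Fcgr3, Fcgr2b, Cd34, Kit, Ly6a, Col1a1, Pecam1, Cd79a, Cd3e and the genes under 1 CPM were named outside this rule, after their values were seen. Some eligible genes are not reported here.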

Additional observations from a re-analysis of the deposited data

Results flagged for a closer look

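Emr1 in KO CMP was 1.13 CPM in library 1, far from the other 3 libraries, which lay between 2.90 and 3.10 CPM. It was the 1 group set apart in this way among the 30 groups of 4 libraries examined for the 10 genes, where chance alone sets apart about 1 in 20.

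The KO effect differed between libraries 1 and 2 and libraries 3 and 4 for 7 members in each cell type, by edgeR's test of the difference itself. In CMP the differences on the log2 scale were -4.22 for Ly6c1, -3.96 for Ly6c2, -2.19 for Ly86, -1.72 for F13a1, -1.71 for Cx3cr1, -1.68 for Csf1r and -1.23 for Itgam. In GMP they were -3.45 for Ly6c1, -3.19 for Fn1, -3.15 for Ly6c2, -2.88 for Ly86, -1.57 for F13a1, -1.55 for Csf1r and -0.75 for Itgam, with 1 KO library behind the first set.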

How the results depend on the processing

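Of the log2 changes of single members recomputed under the alternatives, 1563 kept their direction and side of the threshold, 33 gained the threshold, 33 lost it and 43 changed sign. The cause was not tested. DESeq2 called 2 members in KO against WT of CMP, 1 in GMP and 5 in the WT step, where edgeR called 0, 0 and 2. Over all genes it called 368 in CMP and 60 in GMP, where edgeR called 0 in each, and edgeR called 50 in CMP without WT CMP 4 and 5 in GMP with the library set as a covariate. With that covariate the WT step called 4 members, and the CMP-GMP difference of the KO effect was 0.014 for Csf1r and 0.022 for Ccr2. Without the 3 libraries that hold Xist, the WT step called 7, and the KO change was 0.033 for Ccr2 in CMP and 0.17 for Itgam in GMP. The difference was then 0.26 for Csf1r, 0.19 for Ccr2 and 0.18 for Cx3cr1. The KO step of Ly86 was -0.18 and of Cx3cr1 -0.79 (adjusted p = 0.00294). In this setting KO libraries 3 and 4 are compared with all WT libraries. For the WT step by DESeq2, with the covariate or without these 3 libraries, the share of all genes called is not reported here. By DESeq2, without the filter and with values divided by 4, libraries 3 and 4 of KO GMP called 1, 1 and 1, and the WT sets in GMP 2, 2 and 2, against 0 and 1.

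With each library left out in turn, the KO step called 2 to 6 members, the WT sets 2 to 3 in CMP (4 with all) and 0 in GMP, and the WT step in libraries 1 and 2 called 4 to 7. The KO change of Itgam in GMP ran from -0.31 to 0.17, and the difference of the KO effect from -0.44 to 0.20 for Csf1r, -0.18 to 0.14 for Ccr2, -0.49 to 0.10 for Emr1 and -0.16 to 0.61 for Ly86. In the KO step, Cx3cr1 ran from -0.48 to 0.14 and Ly86 from -0.21 to 0.56. In libraries 3 and 4, Ly6c1 in CMP ran from -0.18 to 0.25 and Itgam in GMP from -0.084 to 0.065. Between WT sets, Fn1 ran from -0.22 to 0.34 and Ly86 from -0.45 to 0.020 in CMP, and Fn1 from -0.13 to 0.18 in GMP. The set difference of the KO effect in GMP ran from -0.0050 to 0.14 for Ccr2, and the WT step in libraries 3 and 4 from -0.044 to 0.11 for Csf1r and -0.15 to 0.051 for Ly86. Over all genes, the WT step called 3872, and 2430 without WT CMP 3, and the KO step 3225, and 1656 or 1763 without KO GMP 3 or 4.

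With the replicate block, which pairs libraries by number, the members called were 0 and 0 in KO against WT, 0 in the difference, 2 in the WT step and 6 in the KO step, and no member's call changed. Depth limits the low values: KO CMP 1 had 79 units of Ly6c1, and the library set holding KO GMP 1 has no second KO GMP library.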

Other observations

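In the KO step from CMP to GMP, 15 of the 40 other monocyte and macrophage genes rose and 1 fell, beside 11 and 3 in WT, where 10.7% and 10.5% of all genes did so in KO and 11.3% and 14.2% in WT. Among granulocyte genes 13 of 18 rose in KO and 10 in WT, and no dendritic cell marker rose in either. Of the dendritic cell markers 1 of 13 fell in KO and 10 in WT; whether these counts differ between the genotypes was not tested.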
